A study of Mus musculus with 8 samples.

Results

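The CD28 receptor family of T cells comprises 5 genes in mice, Cd28, Icos, Ctla4, Pdcd1 and Btla, which were followed in RNA sequencing libraries of regulatory T (Treg) cells. The genes were chosen by name, and all 5 were found among the 52459 gene symbols listed. All 5 had a mean of at least 10 normalized counts and were among the 15419 genes tested. Gene expression was compared between WT Treg cells and Treg cells labelled Stim1/2-deficient, unstimulated or after 16 h with plate-bound antibodies against CD3 and CD28, in 8 libraries. The labels give C57BL/6 as the strain of every group, Foxp3+CD25+ Treg cells as the cells, WT as one genotype and Stim1 (fl/f) and Stim2 (fl/fll, as spelled there) with Foxp3-YFPcre as the other. According to the methods, both kinds of cells were sorted as CD4+CD25hi cells from spleen and lymph nodes of pooled female mice heterozygous for the Foxp3-YFPcre allele, so that the cells of both groups came from mice with floxed Stim1 and Stim2. The WT cells were the YFPcre- cells of such mice and the Stim1/2-deficient cells their YFPcre+ cells, in which Cre is driven from the Foxp3 locus. Genotype and use of the Foxp3-YFPcre allele therefore cannot be told apart. The age of the animals is not given in the sources used here.

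Receptors of the CD28 family sit on the T cell surface and adjust the response to the T cell receptor. CD28 and ICOS are costimulatory and bind PI3K through their cytoplasmic tails, whereas CTLA-4, PD-1 (encoded by Pdcd1) and BTLA are inhibitory. CTLA-4 competes with CD28 for the ligands CD80 and CD86, is abundant in Treg cells and is needed for their suppressive function, ICOS and PD-1 mark activated and follicular Treg cells, and BTLA is also made by B cells. STIM1 and STIM2 sense the filling of the calcium store of the endoplasmic reticulum and open CRAC channels, and the calcium that enters activates the phosphatase calcineurin and the NFAT transcription factors.

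Cd28, Ctla4 and Icos are neighbours on chromosome 1 of GRCm38.p6 in the RefSeq annotation. Cd28 lies at chr1:60746388-60773359, Ctla4 at chr1:60909025-60915832 and Icos at chr1:60960773-61000322, with 136 kb between the first pair and 44.9 kb between Ctla4 and Icos, and the annotation places only long noncoding RNAs and pseudogenes in these gaps. Pdcd1 lies on the same chromosome at chr1:94038305-94052553 and Btla on chromosome 16 at chr16:45223705-45252895. The RefSeq promoter table held entries for Ctla4, Pdcd1 and Btla, and Cd28 and Icos were not in it. The 250 bases before the start of Ctla4 (chr1:60908775-60909024, plus strand), of Pdcd1 (chr1:94052554-94052803, minus strand) and of a Btla transcript (chr16:45224087-45224336, plus strand, inside the gene) are shown 5′ to 3′ because members with lower and with similar counts in the labelled libraries can be compared in them. Capitals mark the NFAT core GGAAA, searched on both strands and therefore also as TTTCC.
Ctla4: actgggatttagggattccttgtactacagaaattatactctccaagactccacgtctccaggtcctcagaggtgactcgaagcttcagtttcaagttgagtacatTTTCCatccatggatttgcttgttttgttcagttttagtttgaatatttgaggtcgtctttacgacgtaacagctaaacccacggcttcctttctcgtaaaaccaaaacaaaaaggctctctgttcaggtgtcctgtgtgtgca
Pdcd1: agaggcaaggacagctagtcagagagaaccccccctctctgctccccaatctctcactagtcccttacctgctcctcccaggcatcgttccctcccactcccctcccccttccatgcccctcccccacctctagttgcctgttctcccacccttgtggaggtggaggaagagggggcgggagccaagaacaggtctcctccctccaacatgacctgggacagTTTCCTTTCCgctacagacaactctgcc
Btla: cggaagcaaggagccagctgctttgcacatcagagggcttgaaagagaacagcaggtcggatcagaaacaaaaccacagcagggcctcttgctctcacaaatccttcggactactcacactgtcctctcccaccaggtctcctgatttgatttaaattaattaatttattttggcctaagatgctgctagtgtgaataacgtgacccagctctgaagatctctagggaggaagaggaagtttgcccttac
The core was matched once before Ctla4, starting 144 bases before the gene start. Before Pdcd1 there were 2 matches, side by side at 28 and 23 bases. The Btla window held 0 matches, which says only that these letters are not in it. Of 32851 promoters of the same length, 55.6% hold the core and 21.4% hold it at least 2 times, so that a match is common. The AP-1 motif TGAGTCA and the forkhead motif GTAAACA, also searched on both strands, were in none of the 3 windows, against 4.46% and 3.17% of all promoters.

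The values are normalized counts, that is, reads on a gene divided by 1 size factor per library, from 11851853 to 16306540 reads on genes per library. The transcripts of the targeted genes did not pass the test in either genotype comparison. Stim1 had 1139 and 1377 normalized counts in unstimulated WT against 1538 and 1868 in the libraries labelled Stim1/2-deficient (the labelled libraries), and Stim2 had 906 and 908 against 904 and 744. After stimulation Stim1 had 645 and 673 against 552 and 642 and Stim2 665 and 782 against 620 and 696. A count over the whole gene does not check the loss of single exons, so the libraries go by their labels here. The Treg cell markers Cd3e, Cd4, Foxp3, Il2ra and Ikzf2 were detected in every library, Foxp3 at 4258 to 11918 normalized counts. Transcripts of other cells were uneven. The summed counts of 10 myeloid markers were 445 and 467 in unstimulated WT, 9998 and 1651 in unstimulated labelled replicates 1 and 2, and 165 to 443 in stimulated libraries. The summed counts of 12 B cell markers were 6991 and 6033 in unstimulated WT, 15993 and 4402 in the labelled libraries, and 2546 to 5970 after stimulation. Unstimulated labelled replicate 1 thus stood apart, and the fold changes of the family that use it are given with and without it. The 6 dendritic cell markers summed to 702 in that library and 231 to 441 in the others, and the 6 CD8 T and NK cell markers summed to 318 to 1369 over all libraries, highest in stimulated labelled replicate 1. C1qa was at 0 in both unstimulated WT libraries and C1qa and Mrc1 were at 0 in all 4 stimulated libraries. In RNA from many cells, fewer cells of a type and less RNA per cell cannot be told apart.

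In unstimulated cells the comparison asks what differs in Treg cells labelled as lacking both STIM proteins before antibody was added. Icos, Ctla4 and Pdcd1 were lower in the labelled libraries, and Cd28 and Btla did not pass the test. Icos fell most, with 14389 and 13756 normalized counts in WT (14072 ± 448, SD, n = 2) and 1701 and 2098 in the labelled libraries (1899 ± 281, SD, n = 2). The groups were far apart for Icos and each pair of replicates was close. The log2 fold change (log2FC) was -2.90 (standard error, SE, 0.18), a 7.44-fold lower value, with a limma adjusted p of 0.000125, the second smallest p of the 15419 genes. Icos remained called under each of 15 alternatives, including the fit without unstimulated labelled replicate 1 (log2FC -2.74, limma adjusted p = 0.000268).

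Ctla4 codes for the inhibitory receptor of CD80 and CD86. It had 37403 and 35119 normalized counts in WT against 6338 and 17333 in labelled replicates 1 and 2. Both labelled libraries lay below both WT libraries, yet they differed from each other by more than the WT pair did. The log2FC was -1.79 (SE 0.37, limma adjusted p = 0.0271), or 3.46-fold lower. Without labelled replicate 1, the library rich in myeloid transcripts, it was -1.06 and still called (limma adjusted p = 0.00939), and without labelled replicate 2 it was -2.52. The call was lost without WT replicate 3 (limma adjusted p = 0.272) or 4 (limma adjusted p = 0.120), when every gene above 0 was tested (limma adjusted p = 0.0582) and with limma on these 4 libraries alone (limma adjusted p = 0.0839).

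Pdcd1 was the least abundant member. WT had 302 and 260 normalized counts against 52.4 and 69.5, with no overlap. The log2FC was -2.20 (SE 0.33, limma adjusted p = 0.0104), or 4.58-fold lower. Without labelled replicate 1 it was -1.997 and still called (limma adjusted p = 0.0206), and the call was lost without WT replicate 3 (limma adjusted p = 0.183) or 4 (limma adjusted p = 0.0737).

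Cd28 had 17336 and 17162 normalized counts in WT against 8749 and 17353 in labelled replicates 1 and 2. Labelled replicate 2 matched WT and only replicate 1 was lower, so the groups overlapped. The log2FC was -0.49 (SE 0.27, limma adjusted p = 0.334). It was 0.01 without replicate 1 (limma adjusted p = 0.982), and -0.98 and called without replicate 2 (limma adjusted p = 0.00915), so that 1 library decides the value. The lower library is the one with 9998 normalized counts of myeloid markers, and the part of other cells in its Cd28 count was not tested.

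Btla had 1744 and 1745 normalized counts in WT against 2096 and 1720 in the labelled libraries, and the groups overlapped. The log2FC was 0.12 (SE 0.22, limma adjusted p = 0.794) and -0.02 without labelled replicate 1. In all, limma called 3 of the 5 receptors, each lower in the labelled libraries, where 4.73% of all tested genes were called in either direction. The paper already reports Icos, Ctla4 and Pdcd1 as reduced in these cells, so this count is not independent support. The median log2FC was -1.79 over the 5 receptors and -0.01 over all tested genes. Counts of the labelled pair lay below those of the WT pair for 3 receptors and for 27.1% of tested genes.

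**Figure D1:**
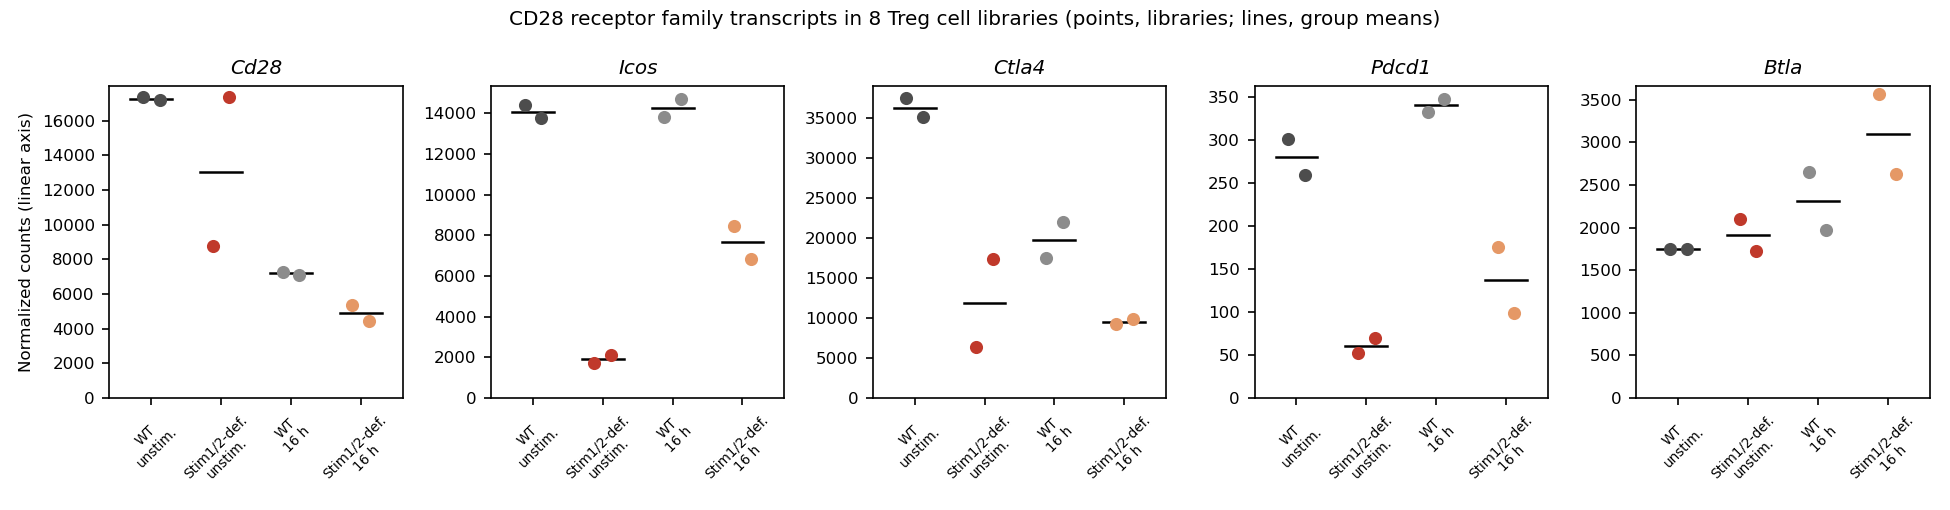
Normalized counts (linear axis from 0, a separate scale for each gene) of Cd28, Icos, Ctla4, Pdcd1 and Btla in WT libraries and libraries labelled Stim1/2-deficient (Stim1/2-def.), unstimulated or after 16 h of stimulation; points are libraries and lines the means of 2. The unstimulated labelled libraries are lowest for Icos (1701 and 2098) and Pdcd1 (52.4 and 69.5), whereas for Cd28 1 of them (17353) sits with WT and the other (8749) apart.

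After 16 h of stimulation the same 3 receptors and Cd28 had lower counts in both labelled libraries than in both WT libraries. Limma called none of them. The fold changes of Icos, Ctla4 and Pdcd1 were smaller than in unstimulated cells, whereas that of Cd28 was not (log2FC -0.56 against -0.49). Icos had 13802 and 14688 normalized counts in WT and 8479 and 6844 in the labelled libraries, a log2FC of -0.90 (SE 0.18, limma adjusted p = 0.0661). Ctla4 had 17476 and 21926 in WT against 9261 and 9849, with a log2FC of -1.04 (SE 0.37, limma adjusted p = 0.234). For both genes the labelled pair lay below the WT pair without overlap. Pdcd1 had 333 and 349 normalized counts in WT and 176 and 98.8 in the labelled libraries, a log2FC of -1.36 (SE 0.33, limma adjusted p = 0.106). Cd28 had 7298 and 7087 against 5366 and 4463, with a log2FC of -0.56 (SE 0.27, limma adjusted p = 0.411). These groups did not overlap either.

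Btla pointed the other way without passing the test. It had 2651 and 1969 normalized counts in stimulated WT against 3569 and 2628 in the labelled libraries, which overlapped, and the log2FC was 0.42 (SE 0.22, limma adjusted p = 0.438). Thus limma called 0 of 5 receptors, where 0.272% of all tested genes were called. At an unadjusted p under 0.05 the count was 3 of 5, namely Icos, Ctla4 and Pdcd1, against 13.7% of tested genes. The count depended on the test: edgeR called 0 receptors, DESeq2 on all libraries called Icos (DESeq2 adjusted p = 0.00296) and Pdcd1 (DESeq2 adjusted p = 0.0185), and DESeq2 on the 4 stimulated libraries, the design closest to the study's own, called Icos, Ctla4 and Pdcd1. With quantile normalization limma called Icos (limma adjusted p = 0.0193) and Ctla4 (limma adjusted p = 0.0372). With a replicate block it called the same genes, Icos (limma adjusted p = 0.0212) and Ctla4 (limma adjusted p = 0.0135), among 393 genes in all, although the replicate numbers do not establish pairing. Without labelled replicate 1, limma called Icos (limma adjusted p = 0.0292) and Pdcd1 (limma adjusted p = 0.0243). Counts of the labelled pair lay below those of the WT pair for 4 receptors and for 23.1% of tested genes.

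**Figure D2:**
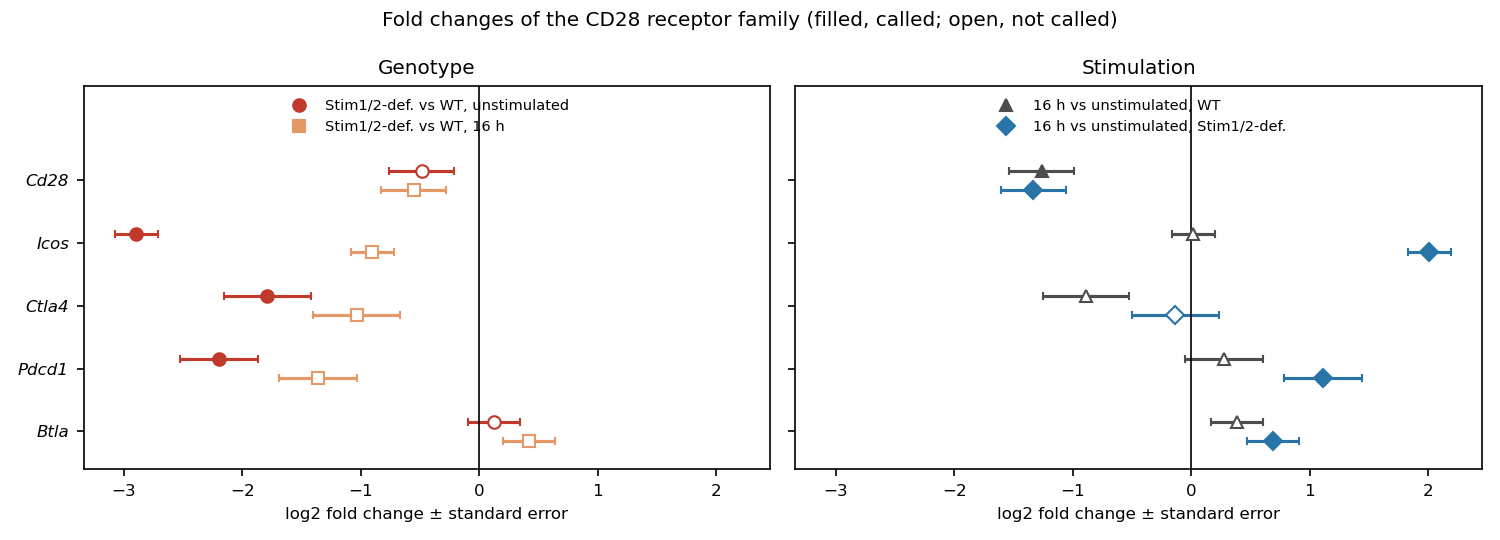
Log2 fold changes of the 5 receptors (horizontal axis, bars ± standard error of the limma fit, each from 2 libraries against 2), with genotype in the left panel and stimulation in the right panel; filled symbols were called and open ones were not. Icos lies at -2.90 in unstimulated and -0.90 in stimulated cells for genotype, and at 0.02 in WT and 2.01 in labelled cells for stimulation.

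An interaction term compared the genotype effect in stimulated cells with that in unstimulated cells. For Icos the interaction was 1.99 on the log2 scale (SE 0.26, limma adjusted p = 0.109), a 3.98-fold smaller deficit after stimulation, which missed the threshold although its p was the second smallest of the tested genes. The interaction was 0.75 for Ctla4 (limma adjusted p = 0.709), 0.84 for Pdcd1 (limma adjusted p = 0.654), 0.30 for Btla (limma adjusted p = 0.810) and -0.07 for Cd28 (limma adjusted p = 0.973). Limma called 0 of 5 receptors, and 0% of tested genes, in this contrast. At an unadjusted p under 0.05 there was 1 receptor, Icos, among 1257 genes. By edgeR 0 genes were called, and by DESeq2 47, Icos among them (DESeq2 adjusted p = 5.67e-07). Without unstimulated labelled replicate 2, limma called 196 genes, with Icos at 2.15 (limma adjusted p = 0.00543) and Ctla4 at 1.48 (limma adjusted p = 0.0180). Without unstimulated labelled replicate 1, the library that stood apart, limma called 0 genes, Icos was at 1.84 (limma adjusted p = 0.127) and Ctla4 at 0.03 (limma adjusted p = 0.978). Without that library the interaction was 0.64 for Pdcd1, 0.44 for Btla and -0.56 for Cd28, so that the values of Ctla4 and Cd28 were decided by 1 library.

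Stimulated libraries were sequenced in another lane than unstimulated ones. No cells kept for 16 h in culture without antibodies are named in the sources used here. Stimulation, lane and time in culture therefore cannot be told apart in the next values, and the antibody against CD28 binds the product of a member. Cd28 was lower after stimulation in both genotypes. In WT it went from 17336 and 17162 to 7298 and 7087 normalized counts, a log2FC of -1.26 (SE 0.27, limma adjusted p = 0.0102). It was smaller with equal totals (-0.74, limma adjusted p = 0.0408) and quantile normalization (-0.59, limma adjusted p = 0.0327). In the labelled libraries it went from 8749 and 17353 to 5366 and 4463, a log2FC of -1.33 (SE 0.27, limma adjusted p = 0.00714), which was -1.83 without unstimulated labelled replicate 1, -0.94 with equal totals and -0.86 with quantile normalization. In neither genotype did stimulated and unstimulated libraries overlap. The call in WT was lost when any 1 of its 4 libraries was left out (limma adjusted p between 0.0664 and 0.0782).

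Icos rose in the labelled libraries, from 1701 and 2098 to 8479 and 6844 normalized counts, with a log2FC of 2.01 (SE 0.18, limma adjusted p = 0.000239), or 1.86 without unstimulated labelled replicate 1. In WT, where it had 14389 and 13756 before and 13802 and 14688 after, the log2FC was 0.02 (SE 0.18, limma adjusted p = 0.958), and the difference between the genotypes is the interaction given above. The WT value depended on the scaling, since it was 0.54 with equal totals (limma adjusted p = 0.0287, under 1.5-fold) and 0.66 and called with quantile normalization (limma adjusted p = 0.0133). Even after stimulation the labelled libraries had fewer Icos counts than WT libraries had in either state. Pdcd1 rose in the labelled libraries by 1.12 (SE 0.33, limma adjusted p = 0.0329) and had a log2FC of 0.28 in WT (limma adjusted p = 0.574). The call of Pdcd1 in the labelled libraries was lost under 6 alternatives. These included leaving out unstimulated labelled replicate 1 (log2FC 0.92) or stimulated labelled replicate 1.

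Btla rose in the labelled libraries by 0.69 (SE 0.22, limma adjusted p = 0.0429) and had a log2FC of 0.39 in WT (limma adjusted p = 0.222). The WT value was called with equal totals (0.91, limma adjusted p = 0.0116) and quantile normalization (0.72, limma adjusted p = 0.0479). In the labelled libraries the value was 0.83 without unstimulated replicate 1. The call of Btla there was lost under 7 alternatives. These included equal upper quartiles (limma adjusted p = 0.0776) and leaving out unstimulated labelled replicate 2 or stimulated labelled replicate 1. Ctla4 had a log2FC of -0.89 in WT (SE 0.37, limma adjusted p = 0.105) and -0.13 in the labelled libraries (SE 0.37, limma adjusted p = 0.815). Under alternatives that left out no WT library the WT value ranged from -0.89 to -0.16, and 3 of them called it. The labelled value was -0.86 without unstimulated labelled replicate 1 and 0.59 without replicate 2. It was positive with equal totals (0.26) and quantile normalization (0.37), so that it has no settled direction. In all, 1 of 5 receptors was called in WT, where 23.3% of tested genes were called, and 4 of 5 in the labelled libraries, where 25.0% were. With libraries rescaled to equal totals the median of all genes moved by 0.51 in WT and 0.38 in the labelled libraries on the log2 scale, and for genotype in unstimulated cells by 0.12, or 0.16 with equal upper quartiles. With or without these shifts Cd28 was still lower and, in the labelled libraries, Icos still higher under each scaling tried.

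Btla transcripts can come from B cells, and its counts were set beside theirs. Ms4a1, which codes for CD20, had 24.8 and 31.0 normalized counts in unstimulated WT, 699 and 148 in unstimulated labelled libraries, 263 and 19.0 in stimulated WT and 312 and 61.6 in stimulated labelled libraries. In each of the 3 groups whose Btla replicates differed, the library with more Ms4a1 also had more Btla. The same replicates also had more Cd8a, of CD8 T cells, with 147 against 65.4 in unstimulated labelled and 315 against 91.2 in stimulated labelled libraries, whereas Ighm, of B cells, ran the other way in stimulated WT (4234 in the library with more Btla against 4636). On stimulation in labelled libraries, where Btla rose, all 12 B cell markers had negative log2FC values (median -1.28), of which 1 was called. For genotype in unstimulated cells all 12 had positive log2FC values (median 2.27, 2 called), beside 0.12 for Btla. Csf1r, of macrophages, had 1685 and 227 normalized counts in the unstimulated labelled libraries and 0.760 to 28.1 in the others. The part of B cells in the Btla counts was not tested.

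**Figure D3:**
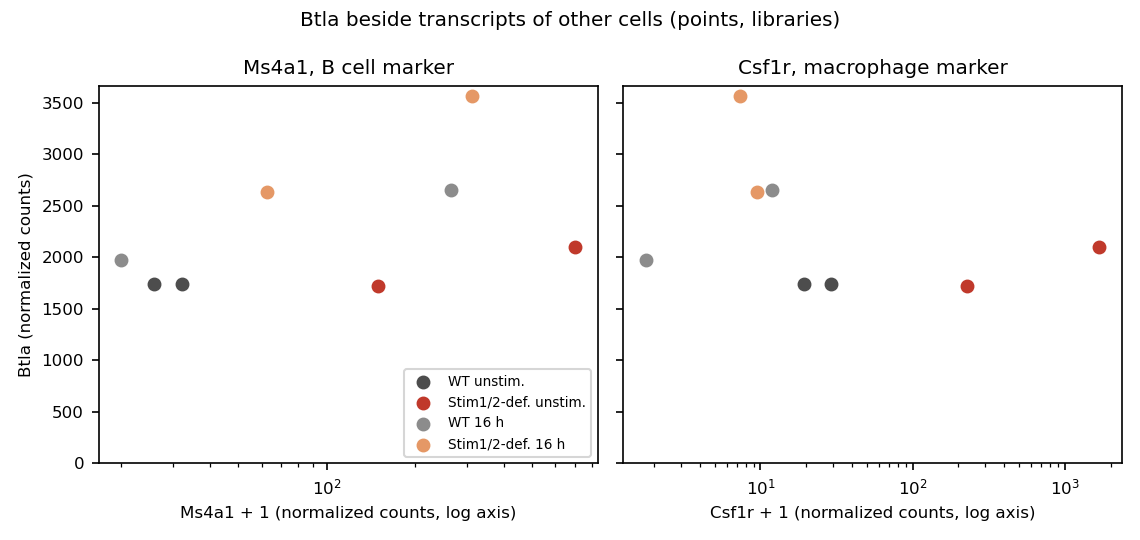
Btla normalized counts (vertical axis, linear from 0) against Ms4a1 of B cells (left) and Csf1r of macrophages (right), both plus 1 on log axes; points are the 8 libraries coloured by group. Within the stimulated WT pair Btla is 2651 at 263 counts of Ms4a1 and 1969 at 19.0, while the libraries with the most Csf1r, 1685 and 227, have 2096 and 1720 counts of Btla.

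Levels of different genes were compared per kilobase of exon, from 6122 bases for Cd28, 3430 for Icos, 2330 for Ctla4, 1928 for Pdcd1 and 3260 for Btla in GENCODE M1. In unstimulated WT cells the mean levels in normalized counts per kilobase were 15563 for Ctla4, 4103 for Icos, 2818 for Cd28, 535 for Btla and 146 for Pdcd1. In unstimulated labelled libraries they were 5079 for Ctla4, 2132 for Cd28, 585 for Btla, 554 for Icos and 31.6 for Pdcd1. Icos thus moved from the second to the fourth place, where it was not separated from Btla, since Icos ranged from 496 to 612 and Btla from 528 to 643. Ctla4 (2720 to 7439) and Cd28 (1429 to 2834) also overlapped there. In stimulated WT libraries the order was that of unstimulated WT, with 8455 for Ctla4, 4153 for Icos, 1175 for Cd28, 709 for Btla and 177 for Pdcd1, and no neighbours overlapped. In stimulated labelled libraries the levels were 4101 for Ctla4, 2234 for Icos, 950 for Btla, 803 for Cd28 and 71.3 for Pdcd1. Btla and Cd28 overlapped there, and their order turned when the longest transcript was used as length (953 for Btla and 1131 for Cd28).

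A ratio of 2 members within a library does not depend on its size factor. CTLA-4 and CD28 share their ligands, and there were 2.16 and 2.05 normalized counts of Ctla4 for each count of Cd28 in unstimulated WT libraries against 0.724 and 0.999 in labelled libraries. After stimulation the ratios were 2.39 and 3.09 in WT and 1.73 and 2.21 in labelled libraries. In both states the labelled pair lay below the WT pair. The difference of the mean log2 ratios, labelled minus WT, was -1.30 in unstimulated (pooled SD 0.23) and -0.48 in stimulated cells (pooled SD 0.26). Without 1 library at a time these differences ranged from -1.54 to -1.07 and from -0.66 to -0.30. With 2 libraries a group an exact permutation test cannot reach 0.05, and none was run. The ratio of Icos to Cd28, chosen after its values were seen, was 0.830 and 0.802 in unstimulated WT and 0.194 and 0.121 in labelled libraries. After stimulation it was 1.89 and 2.07 in WT and 1.58 and 1.53 in labelled libraries, which also lay below.

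**Figure D4:**
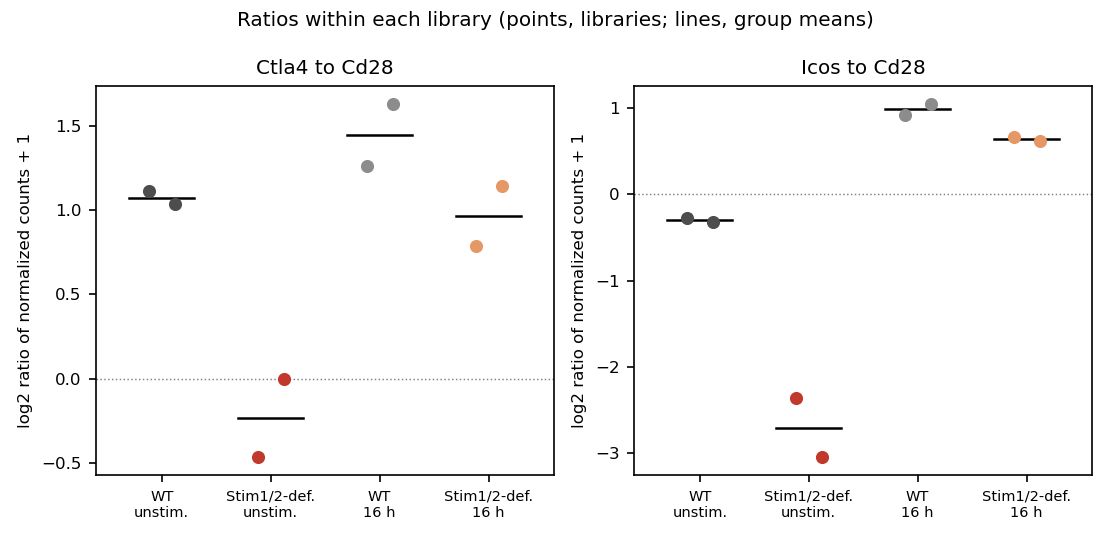
Log2 ratio (vertical axis, after adding 1 to each normalized count) of Ctla4 to Cd28 and of Icos to Cd28 within each library; points are libraries, lines the means of 2 and the dotted line equal counts. The unstimulated labelled libraries lie below all others in both panels, at -0.47 and 0.00 for Ctla4 and at -2.36 and -3.05 for Icos.

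The ligands and counter-receptors of the family were measured in the same cells. Of 8 tested, 1 was called in unstimulated cells, where 4.73% of all tested genes were, namely Cd80, which codes for a ligand of CD28 and CTLA-4. It had 290 and 282 normalized counts in WT against 81.8 and 42.7 in labelled libraries, with no overlap and a log2FC of -2.25 (SE 0.40, limma adjusted p = 0.0173). Cd86, the other shared ligand, had 656 and 801 against 544 and 877 normalized counts, overlapping (log2FC -0.07, limma adjusted p = 0.910), and it was positive under 3 other scalings. The ICOS ligand gene Icosl had 135 and 167 against 379 and 195 (log2FC 0.85, limma adjusted p = 0.236). Of the PD-1 ligands, Cd274 (PD-L1) had a log2FC of -0.17 (limma adjusted p = 0.739) and Pdcd1lg2 (PD-L2) one of -0.88 (limma adjusted p = 0.192). Of the genes of the BTLA axis, Tnfrsf14 (HVEM, the BTLA ligand) had -0.08 (limma adjusted p = 0.932), Tnfsf14 (LIGHT) -0.73 (limma adjusted p = 0.617) and Cd160 1.13 (limma adjusted p = 0.155). The median of the 8 was -0.13 on the log2 scale.

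After stimulation limma called 0 of these 8 genes, where 0.272% of all tested genes were called. An unadjusted p under 0.05 was found for 2 of them, Cd80 and Cd274, against 13.7% of all tested genes. Cd274 had 2547 and 2374 normalized counts in WT and 5343 and 6538 in labelled libraries, which did not overlap, with the largest change of the list, 1.26 (SE 0.25, limma adjusted p = 0.0637). DESeq2 on all 8 libraries called it. Cd80 had 221 and 172 against 123 and 68.4 (log2FC -1.08, limma adjusted p = 0.255). The other 6 had log2FC values of 0.56 (Cd86), 0.44 (Tnfrsf14), 0.34 (Cd160), 0.33 (Icosl), -0.19 (Tnfsf14) and -0.46 (Pdcd1lg2), and limma adjusted p of 0.379 or more.

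Below the receptors, 16 genes for kinases, adaptors and phosphatases that act at their tails were tested. In unstimulated cells 1 of 16 was called, near the 4.73% of all tested genes. It was Prkcq, which codes for protein kinase C theta and was higher in the labelled libraries, with 6329 and 5734 normalized counts against 3176 and 3095 in WT (log2FC 0.94, SE 0.19, limma adjusted p = 0.0252). After stimulation 0 were called by limma, where 0.272% of all tested genes were called. An unadjusted p under 0.05 was found for 2, Grap2 and Prkcq, near the 13.7% of all tested genes. Prkcq then had 2985 and 4075 against 1627 and 1789 (log2FC 1.03, limma adjusted p = 0.0541), and Grap2, which codes for the adaptor GADS, had 705 and 1010 against 307 and 417 (log2FC 1.24, limma adjusted p = 0.0682). Neither pair of groups overlapped, and DESeq2 on all libraries called both genes. Of the PI3K subunit genes Pik3r1, Pik3ca, Pik3cb and Pik3cd, none was called in either state. The median of the list was -0.09 in unstimulated and 0.12 in stimulated cells.

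Among 8 genes for receptor trafficking and decay of receptor mRNA, 1 was called in unstimulated and 2 in stimulated cells, against 4.73% and 0.272% of all tested genes. Lrba, whose product keeps CTLA-4 from lysosomal breakdown, was lower in the labelled libraries in both states. It had 6992 and 6969 normalized counts in unstimulated WT against 3839 and 3591 (log2FC -0.91, SE 0.16, limma adjusted p = 0.0157). After stimulation it had 7579 and 7437 against 3439 and 3199 (log2FC -1.18, SE 0.16, limma adjusted p = 0.0356). Trat1, whose product TRIM takes part in CTLA-4 transport to the surface, was higher after stimulation, with 1062 and 1458 against 419 and 487 (log2FC 1.46, SE 0.22, limma adjusted p = 0.0392). Unstimulated, it had 835 and 773 against 694 and 849, which overlapped, and a log2FC of -0.06 (limma adjusted p = 0.900). Medians of the list were -0.03 and 0.08.

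Of 12 transcription factors known to act on genes of the family, 5 were called in unstimulated cells, all lower in the labelled libraries. Of all tested genes 4.73% were called, 517 lower and 213 higher. This list was chosen with earlier results of these data known. The paper already reports Prdm1, Batf, Irf4 and Maf as downregulated in these cells, so the count is not independent support. Prdm1 (Blimp-1) changed most, from 2050 and 1637 normalized counts in WT to 382 and 196 (log2FC -2.74, SE 0.33, limma adjusted p = 0.00538). Batf had 881 and 734 against 224 and 162 (log2FC -2.07, limma adjusted p = 0.00593), and Irf4, its partner on DNA, 3543 and 3498 against 862 and 1030 (log2FC -1.90, limma adjusted p = 0.00880). None of these groups overlapped. Maf had a log2FC of -1.73 (limma adjusted p = 0.0381) and Nfatc1, which codes for the calcineurin-regulated NFAT factor NFATc1, one of -0.80 (limma adjusted p = 0.0480). The call of Nfatc1 was lost under 12 of 15 alternatives and that of Maf under 9. Foxp3 had 10000 and 8159 against 4947 and 4258 (log2FC -0.98, limma adjusted p = 0.0591). The median of the list was -0.89.

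After stimulation Batf alone of the 12 was called, where 0.272% of all tested genes were called. Batf had 1379 and 1186 normalized counts in WT and 464 and 305 in labelled libraries (log2FC -1.76, SE 0.27, limma adjusted p = 0.0392). Prdm1 had 2187 and 2121 against 758 and 454, the largest change of the list (log2FC -1.87, limma adjusted p = 0.0537). Irf4 had 12882 and 11469 against 13241 and 6722, which overlapped (log2FC -0.37, limma adjusted p = 0.617), and the median of the list was -0.43. When unstimulated WT replicate 3 or 4 was left out, limma called 8 and 23 genes in all and Cd80, Prkcq, Lrba, Prdm1, Batf, Irf4, Maf and Nfatc1 were not among them. Of 16 alternatives, the stimulated call was lost under 6 for Lrba, 7 for Trat1 and 7 for Batf. All 3 calls were lost without either stimulated WT library, without stimulated labelled replicate 2, with edgeR, with every gene above 0 and with limma on 4 libraries, and those of Trat1 and Batf also with a pseudocount of 0.1.

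**Figure D5:**
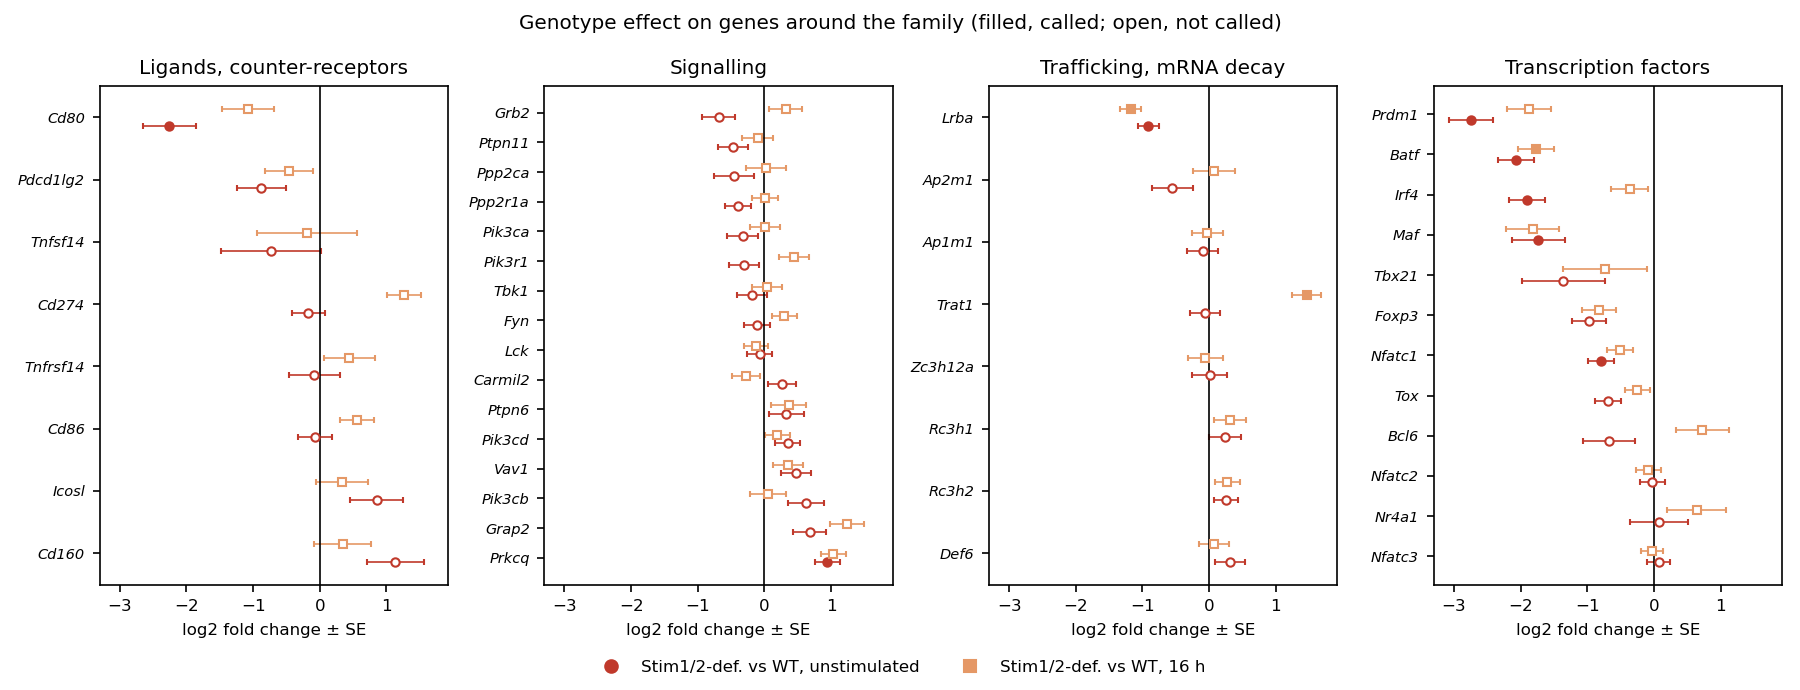
Log2 fold changes (horizontal axis, bars ± standard error (SE), labelled Stim1/2-deficient (Stim1/2-def.) over WT) of ligands and counter-receptors, signalling genes, trafficking and mRNA decay genes and transcription factors, as circles for unstimulated and squares for 16 h stimulated cells; filled symbols were called. Filled circles lie at -2.25 for Cd80, -2.74 for Prdm1 and -2.07 for Batf, and a filled square at 1.46 for Trat1.

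The genes most like each receptor were sought among 9146 genes with a mean of at least 100 by Pearson's r of log2 values over the 8 libraries, which share 4 groups, so that a high r can follow from the groups alone. They were Il21r (0.995), Slamf1 (0.994) and Cenpl (0.993) for Cd28, and Twsg1 (0.989), Metap2 (0.988) and Ccr8 (0.984) for Icos. For Ctla4 they were Dgat2 (0.971) and Scamp1 (0.966), and for Pdcd1 Arl5a (0.985), Il10 (0.984) and a transcript without a gene name (0.984). Btla was closest to Poli (0.965), Abraxas1 (0.955) and Serpinb9 (0.950). Within the family, r over the same libraries was 0.96 between Icos and Pdcd1 and 0.71 between Ctla4 and Pdcd1. Among the neighbours on chromosome 1 it was 0.68 between Cd28 and Ctla4, 0.65 between Icos and Ctla4 and -0.08 between Cd28 and Icos. Between Cd28 and Pdcd1 it was 0.05. Btla had -0.84 with Cd28, -0.62 with Ctla4, 0.11 with Icos and 0.0073 with Pdcd1.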

How the data were processed

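RNA of sorted Treg cells was measured in 4 groups of 2 libraries each, 8 libraries in all, and groups (genotype and stimulation) were taken from the labels. Each library was made from pooled mice, as the methods state, so that p-values measure the spread between pools. The deposited signal values are normalized counts: for each library the authors scaled the reads on a gene with a single size factor and kept 2 decimals. Dividing by the step between low values, taken as 1 read, returned whole reads for 100% of the values (tolerance 0.05 reads), 1 read being 0.759 to 1.48 normalized counts, and 3 reads 2.28 to 4.43. Sources differ on the steps before: the methods name NCBIM37, Bowtie, removal of duplicates with Picard and HTSeq, whereas the submitters' processing notes name mm10, STAR 2.7, bcl2fastq 1.8.4 and DESeq2, and the labels name a stranded kit where the methods name an unstranded one. Ctla4 had up to 34660 reads in a library, 7.44 times the 4660 start positions that its exons hold on both strands, which is more than removal of duplicates by position leaves. Mitochondrial genes took 15.1% to 29.5% of reads.

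In R 4.3.3, limma 3.58.1 (moderated variances with a trend) was run on log2(value + 1), a pseudocount of 1, with 1 model for the 4 groups and the 15419 genes whose mean reached 10. The methods name DESeq2, kept as an alternative because the values were normalized. Tests were 2-sided, p was adjusted by Benjamini and Hochberg over all tested genes within a contrast, and genes were called at an adjusted p under 0.05 and over 1.5-fold. Fold changes are on the log2(value + 1) scale. Tried as alternatives were other pseudocounts (0.1 and 5), testing every gene above 0, means of at least 100, 3 other scalings, recovered reads in edgeR 4.0.16 and DESeq2 1.42.0, limma and DESeq2 on only the 4 libraries compared, a replicate block, and each library left out. Where 1 library of a group remained, it was assumed to vary like the other groups. Scripts were tested on simulated data. Named were the receptors, all tested ligands, pathway genes called in a genotype contrast or largest in their list, marker lists and the 3 genes most like each receptor. For 1 signalling gene and 1 of the genes most like Ctla4 results are not reported here, and the signalling counts and medians leave that gene out. The receptors and lists were chosen with earlier results of these data known. Positions and promoters are from RefSeq (GRCm38.p6), matched by symbol for 35095 of 52459 symbols, and exon lengths from GENCODE M1 (NCBIM37), matched for 28801.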

Additional observations from a re-analysis of the deposited data

How the results depend on the processing

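Of 395 log2 fold changes of the 5 receptors under alternatives, 341 kept their direction and side of the threshold, 23 lost their call, 22 gained one and 9 changed sign. The Icos deficit in unstimulated cells was called throughout (-3.05 to -2.64). Pdcd1 had the fewest reads of the 5 receptors, at most 459 in a library, and 2 libraries a group limit every test. The causes of the changes below were not tested.

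Of the receptors, 3 were called for genotype in unstimulated cells, 0 in stimulated cells, 0 for the interaction, 1 for stimulation in WT and 4 in labelled libraries. Stimulated genotype calls were 2 with quantile normalization, 2 with DESeq2 and 3 with DESeq2 on 4 libraries. The interaction gave 1 with DESeq2. Stimulation in WT gave 2 with equal totals, 3 with quantile normalization, 2 with DESeq2, 2 with limma on 4 libraries and 2 with DESeq2 on 4 libraries. Stimulation in labelled libraries gave 2 with every gene above 0, 2 with limma on 4 libraries and 2 with DESeq2 on 4 libraries. Leaving out 1 library gave 1 to 4, 0 to 2, 0 to 2, 0 and 2 to 4 in this order of contrasts.

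Over all genes, 730 were called for genotype in unstimulated cells, against 362 with every gene above 0, 484 with edgeR, 1321 with DESeq2, 338 with limma on 4 libraries and 1134 with DESeq2 on 4 libraries. In stimulated cells 42 were called, against 8 and 74 with pseudocounts of 0.1 and 5, 1 with every gene above 0, 82 with a mean of at least 100, 202 with quantile normalization, 1 with edgeR, 525 with DESeq2, 1 with limma on 4 libraries and 668 with DESeq2 on 4 libraries. The interaction gave 0, and 47 with DESeq2. Stimulation gave 3593 in WT and 3852 in labelled libraries, the latter 1752 with limma on 4 libraries. Leave-one-out counts ranged from 8 to 1298, 0 to 762, 0 to 196, 971 to 1262 and 2599 to 4229.

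Replicate numbers 1 and 2 are shared by stimulated groups and by the labelled groups, and deviations of same-numbered libraries correlated at 0.17 and 0.26, but with 2 pairs the numbers do not establish pairing. With a replicate block 2 receptors were called for genotype in stimulated cells (Icos, limma adjusted p = 0.0212, and Ctla4, limma adjusted p = 0.0135) and 393 genes in all, and for stimulation in labelled libraries 2 receptors, without Pdcd1 (limma adjusted p = 0.0523) and Btla (limma adjusted p = 0.0798). No paired analysis was possible because of unshared numbers in unstimulated genotype and WT stimulation contrasts.

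Log2 fold changes that turned were Ctla4 for stimulation in labelled libraries (0.26 with equal totals, 0.37 with quantile normalization, -0.86 to 0.59 leaving out 1 library), Icos for stimulation in WT (-0.0276 to 0.0622 leaving out 1 library), Cd28 and Btla for genotype in unstimulated cells (-0.98 to 0.0087 and -0.02 to 0.26) and the interaction of Cd28 (-0.56 to 0.42). For genotype in unstimulated cells, Cd86, Tnfrsf14 and Trat1 were 0.0515, 0.0399 and 0.0552 with equal totals and 0.0939, 0.0818 and 0.0976 with equal upper quartiles, and Cd86 and Trat1 were 0.0677 and 0.0651 with quantile normalization. Leaving out 1 library, genotype in unstimulated cells ranged from -0.41 to 0.28 for Cd86, -0.58 to 0.23 for Cd274, -0.52 to 0.36 for Tnfrsf14, -1.82 to 0.35 for Tnfsf14 and -0.21 to 0.0804 for Trat1, and in stimulated cells from -0.13 to 0.82 for Cd160, -0.94 to 0.57 for Tnfsf14 and -0.85 to 0.12 for Irf4.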
